A study of Mus musculus with 8 samples.

Results

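The carboxylesterases are a family of serine hydrolases that cleave ester and amide bonds in drugs, retinyl esters, cholesteryl esters and triacylglycerol. Most of them reside in the lumen of the endoplasmic reticulum, where a short signal at the C-terminus retains them, and the liver is among their main sites of expression. In hepatocytes, several members take part in mobilising stored triacylglycerol for very low density lipoprotein (VLDL) assembly, and the same enzymes activate or clear ester drugs. The genes described here were chosen by symbol, and all 10 of the 10 listed members were found among the 21532 genes of the table: Ces1c, Ces1d, Ces1e, Ces1f and Ces1g of the Ces1 branch, Ces2a, Ces2c and Ces2e of the Ces2 branch, and Ces3a and Ces3b of the Ces3 branch. In all, 18 carboxylesterase genes were in the table, and the remaining 8 are described after the members.

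RNA from the livers of 8 male db/db mice, a model of obesity and diabetes caused by loss of leptin receptor signalling, was sequenced as 1 library per mouse. The control group (n = 4) was injected with a control that the sources used here do not describe further, and the AF1 peptide group (n = 4) received a peptide derived from estrogen receptor α and joined to a TAT sequence for entry into cells. All mice had a C57B/6J background, and from 8 weeks of age both groups were given 5 mg per kg body weight of control or peptide by retro-orbital injection, 2 times per week for 5 weeks. Both groups carried the leptin receptor defect, and whole liver was used, so fewer cells of a type and less RNA per cell cannot be told apart.

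The libraries held 35260283 to 45117528 reads in genes in the control mice and 23031880 to 43978158 in the AF1 peptide mice, and values are given as normalized counts (reads divided by the size factor of the library). Reads of the 13 mitochondrial genes made up 22.4 to 34.3% of the control libraries and 20.8 to 37.8% of the AF1 peptide libraries. AF1 peptide replicate 1 stood apart: its chi-square per degree of freedom against the other AF1 peptide mice was 231 to 312, compared with 14.6 to 39.8 among those 3 mice and 39.2 to 101.5 among the control mice. The summed count of 6 hepatocyte markers, led by albumin, was 1664787 in that mouse and 2065401 to 2500400 in the other 7 mice. This sum was carried by Alb, Apoa1 and Ttr, since the other 3 markers were at their highest in that mouse, with 120153 counts of Serpina1a (42970.1 to 71942 in the other mice), 68707 of Tat (6311 to 23826) and 10179 of Hnf4a (7720 to 9440). The part of these differences in the results below was not tested. Values without this mouse are given for the members and for the genes called in other lists.

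The reads of the family are divided between close copies, and the coding sequences show where a count may be shared. All 18 genes lie on chromosome 8 in GENCODE M21 (GRCm38), the Ces1 genes on the minus strand and the Ces2, Ces3 and Ces4a genes on the plus strand. Coding identity between members, with gaps left out, was 75.6 to 81.8% within the Ces1 branch (10 pairs) and 83.0 to 84.4% within the Ces2 branch (3 pairs). Between branches it was 64.3 to 68.4% (31 pairs), in alignments with 185 to 306 gap bases. Ces3a and Ces3b were the closest pair of members, with 95.3% identity and 81 differences over 1716 coding bases.

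The last 30 coding bases before the stop codon are shown because they hold the retention signal that separates the enzymes of the endoplasmic reticulum from a secreted one. Sequences are from GENCODE M21 (GRCm38) transcripts, written 5′ to 3′ on the coding strand, with the last 4 codons in capitals.
Ces1c: acagaccctactgaacacACAGAACACAAA
Ces1d: aggccatcccacagggaaCATGTTGAGCTC
Ces1e: aagcaactgccgacagaaCACACTGAGCTG
Ces1f: aaacaaccccagccatacCACAATGAGCTG
Ces1g: aggtcatcccatagggaaCATGTTGAACTG
Ces2a: aagggttctcaggacaagCATGCAGAGCTG
Ces2c: aaggcttctcaggacaagCACAGGGAGCTT
Ces2e: aaggggtctcaggagaggCACAAAGAGTTG
Ces3a: cagagaagcaggaaagttCCAGAGGAGCTC
Ces3b: cagagaagcaggaaagttCCAGAGGAGCTC
In 7 of the 10 members the capitals read histidine, any residue, glutamate and leucine, which is the usual form of the signal in this family. Ces3a and Ces3b end in glutamate and leucine without the histidine, and their last 30 coding bases are identical to each other. Ces1c, the gene of the esterase secreted into mouse plasma, has neither form.

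The stretch in which Ces3a and Ces3b differ most is shown because reads from such stretches are the ones that can assign a count to either gene. Coding bases 758 to 817, counted from the first base of the start codon, hold 13 of the differences, which are in capitals.
Ces3a: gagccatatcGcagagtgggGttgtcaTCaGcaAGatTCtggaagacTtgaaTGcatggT
Ces3b: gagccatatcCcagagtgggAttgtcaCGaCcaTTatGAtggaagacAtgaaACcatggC
Elsewhere the pair is identical over runs of up to 194 bases. Of all 50-base words in the Ces3a transcripts, 25.6% were also in another gene, and for Ces3b the share was 26.2%. The most affected member was Ces2c, with 36.1% of its words elsewhere and 32.7% in the pseudogene Ces2d-ps, while after the Ces3 pair came Ces2a with 17.3% (16.3% in Gm7208) and Ces1c with 13.0%. Each of the other 5 members shared between 0.903 and 3.3% of its words. Ces1d and Ces3a also overlap other annotated genes (Gm45909 and Gm45724), and whether strand was used in counting is not given in the sources used here, so both counts are uncertain to that extent.

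The family was abundant in these livers and was led by the secreted Ces1c. Summed over the 10 members, the level was 85774 ± 13347 normalized counts in the control mice and 90690 ± 7650 in the AF1 peptide mice (SD, n = 4 each), or 0.193 to 0.303% of all reads. The sum ranged from 67319 to 99229 in the control mice and from 81371 to 99166 in the AF1 peptide mice, so the groups overlapped. Of the counts of all 18 genes, Ces1c made up 37.0 ± 2.67% in the control and 35.9 ± 2.59% in the AF1 peptide mice, Ces1d 16.0 ± 3.13% and 16.7 ± 2.70%, and Ces1f 11.5 ± 1.31% and 10.9 ± 0.708%. The smallest share among the members was that of Ces2c, at 1.88 ± 0.943% and 1.52 ± 0.645%.

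Compared per kb of exon, the level of Ces1c was 14410 normalized counts per kb in the control mice (range, 10350 to 17762). Ces1d was next at 6061 (4602 to 8008), and neither range touched its neighbour in the order. Below them, the levels per kb of Ces1f (3099, 2914 to 3493), Ces1e (2890, 2236 to 3686), Ces3a (2102, 858 to 2820) and Ces2a (1832, 1363 to 2133) overlapped in part from each gene to the next. Ces1g (1604, 1374 to 1704) overlapped Ces2a in turn. Ces1g and Ces2e (1459, 1351 to 1654) were not separated from each other by their ranges, nor were Ces3b (864, 801 to 947) and Ces2c (699, 384 to 993). Between Ces2e and Ces3b the ranges of the control mice were apart. In the AF1 peptide mice the level per kb of Ces3b was 1233 (1032 to 1450) and that of Ces2e was 1140 (816 to 1428), so these ranges overlapped.

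**Figure D1:**
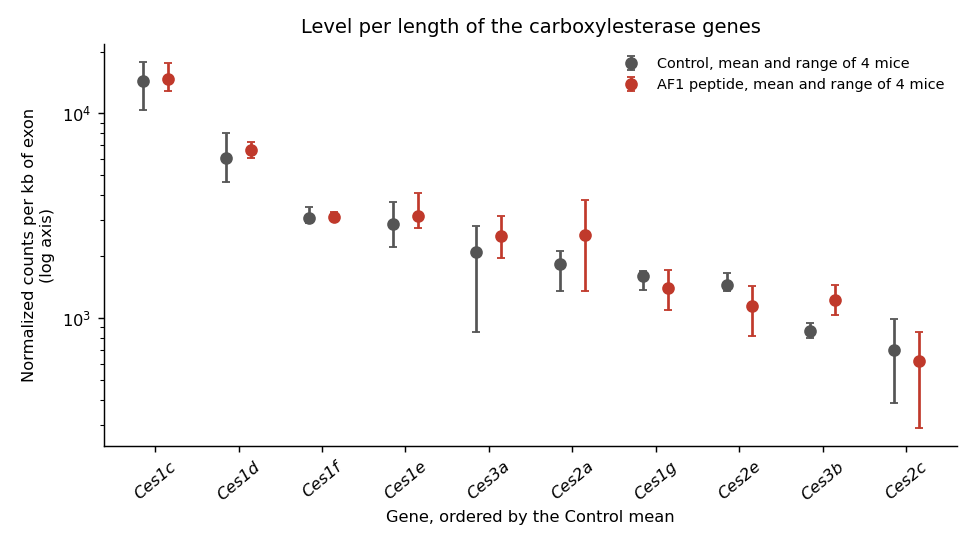
Level of each member in normalized counts per kb of exon (log axis), with genes ordered by the control mean; points are means and bars the range of 4 mice. Ces1c lay at 14410 in the control mice and Ces2c at 699, and the ranges of the groups were apart for Ces3b alone.

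Across the members, the comparison of AF1 peptide with control livers gave 1 gene that was higher in every treated mouse, Ces3b, and 1 gene with a lower estimate whose call depended on single mice, Ces2e. On the log2(normalized count + 1) scale, 7 members had a higher and 3 a lower mean in the AF1 peptide group. By limma across 15989 genes, 2 of the 10 members (20%) had an unadjusted p value under 0.05, compared with 6.19% of all tested genes. One member was called in each direction: Ces3b among the 3.16% of genes called higher and Ces2e among the 3.03% called lower. Groups did not overlap for 1 member, while this was so for 3.9% of all genes (2.05% with the AF1 peptide group higher). No member passed Benjamini-Hochberg adjustment, with adjusted p values of 0.763 to 0.983 in limma. Of all genes, 990 had an unadjusted p value under 0.05 (506 higher, 484 lower; 129 and 769 with libraries scaled to equal totals), none passed adjustment in limma or in edgeR, and 3 did in DESeq2. The median log2 fold change of the members was 0.09 compared with -0.01 over all tested genes, and the median of its absolute size was 0.21 compared with 0.14, at the same median SE of 0.17.

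**Figure D2:**
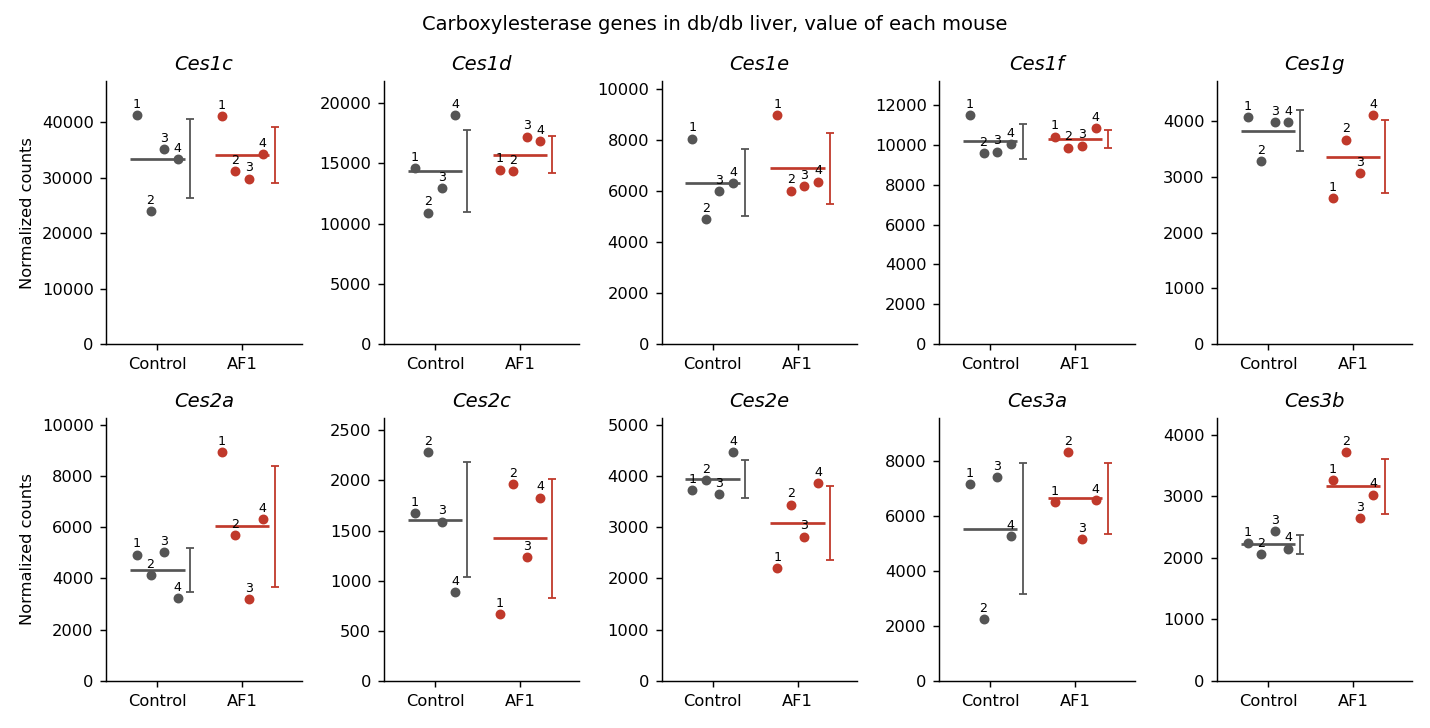
Normalized counts of the 10 members in each mouse (vertical axes from 0, each gene on its own scale); digits give the replicate, horizontal lines the group mean and side bars ± SD (n = 4). For Ces3b the 4 AF1 peptide mice, at 2647 to 3719, sat above the control mice, at 2055 to 2430.0, and the groups overlapped in each of the other 9 genes.

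Ces3b was the member with the smallest p value. Its normalized counts were 2236, 2055, 2430.0 and 2148 in control replicates 1 to 4 and 3258, 3719, 2647 and 3027 in AF1 peptide replicates 1 to 4. Every AF1 peptide mouse was above every control mouse. The means were 2217 ± 159.8 and 3162.5 ± 448 (SD, n = 4 each), a log2 fold change of 0.50 (SE 0.12, 95% interval 0.25 to 0.76), with an unadjusted p of 0.00134 and an adjusted p of 0.763 in limma. In DESeq2 on the recovered reads the adjusted p of Ces3b was 0.12. The two-sided exact permutation test gave p = 0.0286, the smallest value that 4 against 4 mice allow. The difference did not rest on AF1 peptide replicate 1, since the log2 fold change was 0.49 without it (unadjusted p of 0.00184 in limma). It lay between 0.42 and 0.59 when each mouse was left out in turn, with an unadjusted limma p under 0.05 in 8 of 8 cases.

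Ces3a, the neighbour and near copy of Ces3b, was more variable. Its counts were 7162, 2253, 7407 and 5264 in the control mice and 6493, 8314, 5156 and 6559 in the AF1 peptide mice. Control replicate 2 was far below the other 7 mice, which overlapped between the groups. The means were 5521.5 ± 2380.0 and 6630.5 ± 1295 (SD, n = 4 each), and the log2 fold change of 0.38 (SE 0.33, 95% interval -0.35 to 1.12) did not pass the test (adjusted p = 0.825 in limma). Leaving out control replicate 2 brought the log2 fold change of Ces3a to 6.18e-05, close to 0, and it was 0.39 without AF1 peptide replicate 1.

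Because the pair shares sequence, both genes were also summed. The Ces3b share of the pair was 23.8, 47.7, 24.7 and 29.0% in the control mice and 33.4, 30.9, 33.9 and 31.6% in the AF1 peptide mice. The 4 AF1 peptide mice were above 3 of the control mice and below control replicate 2, in which Ces3a was low. For the sum, the log2 fold change was 0.39 (SE 0.25), with an unadjusted limma p of 0.14. How reads that fit both genes were counted is not given in the sources used here, and the part of such reads in the Ces3b difference was not tested.

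**Figure D3:**
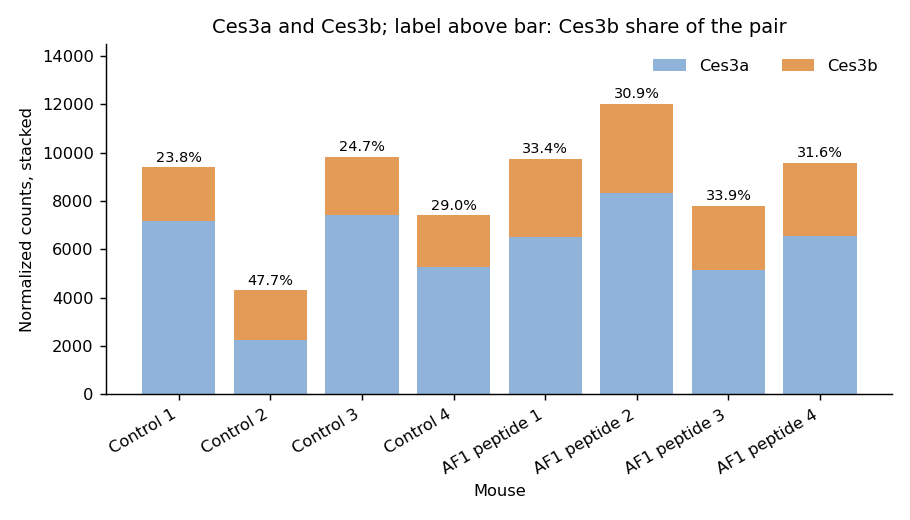
Stacked normalized counts of Ces3a and Ces3b in each mouse, with the Ces3b share of the pair in percent above each bar. Control replicate 2 had the lowest sum, 4308, and the highest Ces3b share, 47.7%.

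In the Ces2 branch, whose enzymes hydrolyse diacylglycerol, triacylglycerol and many drug esters, the members did not go one way. Ces2e, also known for expression in the intestine, had 3726, 3919, 3645 and 4463 normalized counts in the control mice and 2203, 3437, 2814 and 3854 in the AF1 peptide mice. Of the treated mice, 3 were below all control mice, and AF1 peptide replicate 4 was above 2 of them. The means were 3938 ± 368 and 3077 ± 723 (SD, n = 4 each), a log2 fold change of -0.38 (SE 0.16, 95% interval -0.74 to -0.02), with an unadjusted p of 0.0401 and an adjusted p of 0.763 in limma. The exact permutation test for Ces2e gave p = 0.0857.

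This call depended on single mice. Without AF1 peptide replicate 1, the lowest mouse, the log2 fold change of Ces2e was -0.23 with an unadjusted limma p of 0.0823. It also lost the call without control replicate 1 (-0.41, p of 0.0556 in limma), without control replicate 2 (-0.38, 0.0691), without control replicate 4 (-0.32, 0.105) and without AF1 peptide replicate 3 (-0.35, 0.0848). The estimate did not shrink without control replicate 1 or 2, where the fit had fewer mice. In edgeR on the recovered reads the unadjusted p was 0.0565. The direction was lower in all of these fits.

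Ces2a, a hepatic hydrolase of the branch that xenobiotic receptors can induce, spread widely among the treated mice. Its counts were 4928, 4117, 5031 and 3215 in the control mice and 8926, 5677, 3203 and 6304 in the AF1 peptide mice. AF1 peptide replicates 1, 2 and 4 were above all control mice, and AF1 peptide replicate 3 was the lowest of all 8. The means were 4323 ± 844 and 6027 ± 2351 (SD, n = 4 each), and the log2 fold change of 0.41 (SE 0.27, 95% interval -0.19 to 1.01) did not pass the test (unadjusted p = 0.161, adjusted p = 0.781 in limma). Leaving out AF1 peptide replicate 3, the only treated mouse not above all controls, removed the overlap by construction. The log2 fold change was then 0.68 (unadjusted p of 0.00679 and adjusted p of 0.776 in limma). Without AF1 peptide replicate 1 it was 0.19 with a limma p of 0.407.

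Ces2c varied widely in both groups. Its counts were 1673, 2283, 1589 and 883 in the control mice and 668, 1959.8, 1238 and 1828 in the AF1 peptide mice. The highest and second lowest of all 8 mice were controls, and AF1 peptide replicate 1 was the lowest. With means of 1607 ± 573 and 1424 ± 593 (SD, n = 4 each), the log2 fold change was -0.21 (SE 0.35, 95% interval -1.0 to 0.57), and it was 0.11 without AF1 peptide replicate 1. Neither value passed the test (unadjusted limma p of 0.561 and 0.682).

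The counts of Ces2c are uncertain because of Ces2d-ps, a pseudogene whose transcript is 97.6% identical to the Ces2c coding sequence over 1655 aligned bases. Ces2d-ps had 802 to 1910.4 normalized counts in the control mice and 570.2 to 1733 in the AF1 peptide mice. The ratio of Ces2d-ps to Ces2c stayed between 0.837 and 0.919 in all 8 mice, although the Ces2c count itself ranged from 668 to 2283. How many reads both genes share was not tested. Summed, the pair had a log2 fold change of -0.20.

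The Ces1 branch, which held the most abundant members, gave no call. Ces1g encodes a lipid hydrolase known for limiting lipid synthesis and VLDL secretion in the liver. Its counts were 4070.1, 3281, 3979 and 3989 in the control mice and 2623, 3669, 3068 and 4105 in the AF1 peptide mice. AF1 peptide replicates 1 and 3 were the 2 lowest mice, and AF1 peptide replicate 4 was the highest, so the groups overlapped. The means were 3829.8 ± 368 and 3366 ± 653 (SD, n = 4 each), with a log2 fold change of -0.20 (SE 0.14, 95% interval -0.52 to 0.12, adjusted p = 0.792 in limma). The log2 fold change of Ces1g was -0.09 without AF1 peptide replicate 1.

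Ces1d, the triacylglycerol hydrolase that supplies lipid for VLDL, had 14629, 10901, 12938 and 18970 counts in the control mice and 14474, 14347, 17207 and 16812 in the AF1 peptide mice. The AF1 peptide values lay within the span of the control mice. Its means were 14359.5 ± 3431 and 15710.1 ± 1510.0 (SD, n = 4 each), with a log2 fold change of 0.15 (SE 0.17, 95% interval -0.22 to 0.53, adjusted p = 0.854 in limma), and 0.19 without AF1 peptide replicate 1.

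For Ces1c, the counts were 41261, 24042, 35189 and 33406 in the control mice and 41132, 31227, 29870.3 and 34277 in the AF1 peptide mice. Control replicate 2 was the lowest, and the treated mice again lay within the control span. The log2 fold change was 0.04 (SE 0.19, 95% interval -0.38 to 0.47, adjusted p = 0.974 in limma), and its sign turned without control replicate 2 (-0.11) or without AF1 peptide replicate 1 (-0.05).

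Ces1e encodes egasyn, which holds β-glucuronidase in the endoplasmic reticulum. Its counts were 8069, 4895, 6008 and 6329 in the control mice and 8978, 6029, 6209 and 6376 in the AF1 peptide mice. AF1 peptide replicate 1 was the highest mouse and control replicate 2 the lowest, with the groups overlapping. The log2 fold change was 0.13 (SE 0.17, 95% interval -0.26 to 0.51, adjusted p = 0.886 in limma) and -0.01 without AF1 peptide replicate 1.

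Ces1f had the smallest SE of the members. Its counts were 11475, 9572, 9653 and 10014 in the control mice and 10410.4, 9857, 9959.5 and 10843 in the AF1 peptide mice. The treated mice lay inside the control span, with means of 10178.5 ± 886 and 10267.5 ± 453 (SD, n = 4 each). The log2 fold change was 0.02 (SE 0.10) with a 95% interval of -0.22 to 0.25 (adjusted p = 0.983 in limma), and 0.01 without AF1 peptide replicate 1.

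**Figure D4:**
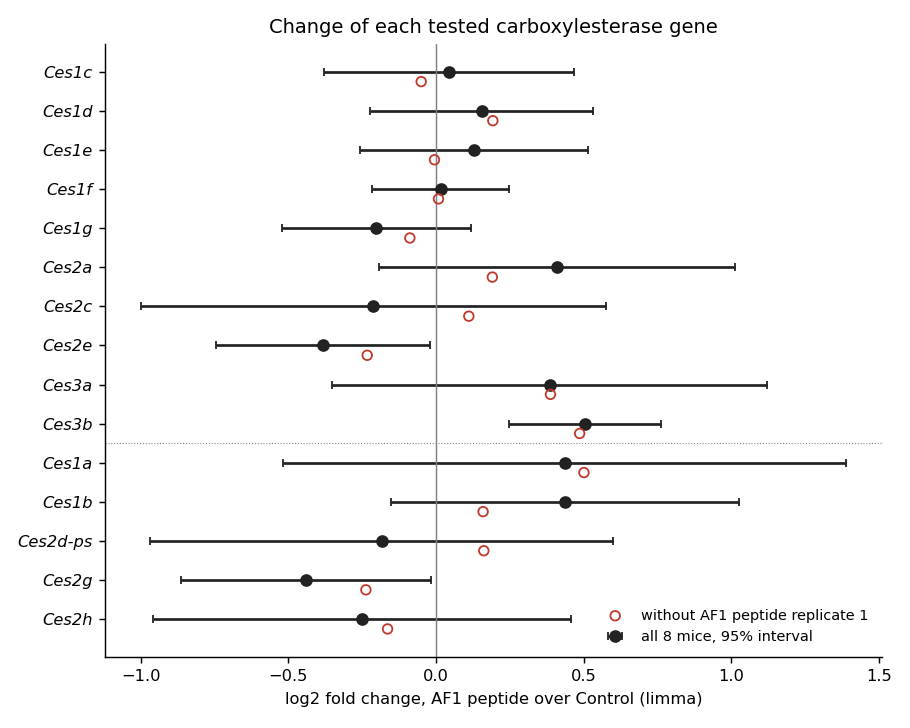
Log2 fold change of AF1 peptide over control for the 10 members (above the dotted line) and the 5 other tested carboxylesterase genes; filled points and bars are limma estimates with 95% intervals from 8 mice, and open points leave out AF1 peptide replicate 1. The intervals of Ces3b, Ces2e and Ces2g leave out 0, and the open point of Ces3b, at 0.49, stayed near its filled point, at 0.50.

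The typical member varied more between mice of a group than the typical abundant gene. The coefficient of variation over mice ranged from 7.21 to 43.1% in the control group (median 20.2%) and from 4.41 to 41.7% in the AF1 peptide group (median 19.5%). Medians over the 3255 genes with a mean of at least 1000 normalized counts were 10.1% and 13.3%. Control replicate 2 held the lowest value of 6 members and AF1 peptide replicate 1 that of 3 (Ces1g, Ces2c and Ces2e).

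The members did not share a single pattern over the 8 mice. By the root-mean-square difference of their log2 values, each centred on the gene's mean, Ces1c and Ces1e were nearest to each other (0.101), and Ces1g and Ces2e formed another close pair (0.158). Ces1f was nearest to Ces1c (0.188), Ces1d to Ces1f (0.222), Ces3b to Ces1f (0.296) and Ces2a to Ces3b (0.353). Ces3a was nearest to Ces1c, at 0.404, and Ces2c to Ces2e, at 0.481. Despite their sequence identity, neither Ces3a nor Ces3b was the nearest member of the other. Outside the family, the genes nearest to the mean profile of the members were Nr2c1 (0.0506), Ly6g2 (0.0526) and Ccdc58 (0.0728), with a median of 0.277 over all tested genes. These values describe 8 mice and carry no test.

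**Figure D5:**
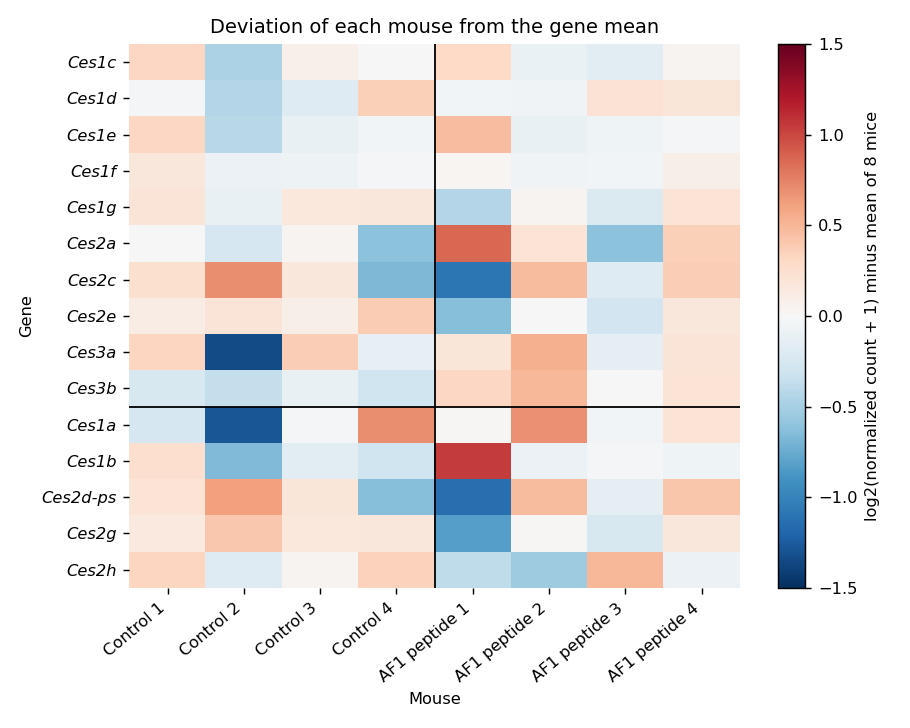
Log2(normalized count + 1) of each tested carboxylesterase gene minus its mean over 8 mice, by mouse (color scale in log2 units); members are above the horizontal line. Control replicate 2 was low for Ces1c, Ces1d, Ces1e and Ces3a, and AF1 peptide replicate 1 was low for Ces1g, Ces2c and Ces2e and high for Ces2a.

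Of the 8 carboxylesterase genes outside the members, 5 passed the filter of a mean of at least 10 normalized counts, and 1 of them was called. Ces2g, a further Ces2 gene, had 923, 1109, 934 and 944 counts in the control mice and 471, 846, 707 and 945 in the AF1 peptide mice. As for Ces2e, 3 treated mice were below all controls, and AF1 peptide replicate 4 was within the control span. The log2 fold change was -0.44 (SE 0.19, unadjusted p = 0.0427, adjusted p = 0.763 in limma) and -0.24 without AF1 peptide replicate 1 (unadjusted limma p of 0.0700). It was called in 2 of the 8 fits that left out a mouse, and also lost the call when any 1 of the control mice (-0.47 to -0.38) or AF1 peptide replicate 3 (-0.43) was left out. The mouse pattern of Ces2g was the nearest in the family to that of Ces2e (0.128).

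Ces1b, whose coding sequence is 91.2% identical to that of Ces1c, had 2016, 1068, 1515.5 and 1382 counts in the control mice and 3509, 1596, 1662 and 1625 in the AF1 peptide mice. Only AF1 peptide replicate 1 was above all controls, and the log2 fold change of 0.44 (SE 0.27, adjusted p = 0.774 in limma) was 0.16 without it. Ces1a (log2 fold change 0.44, SE 0.43) and Ces2h (-0.25, SE 0.32) had means under 16 normalized counts in both groups and did not pass the test. Ces1h, Ces2b and Ces4a had from 0 to 9.18 counts in every mouse and were not tested. Ces2f and Ces5a were not found by symbol among the genes of the table.

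Genes that act beside the carboxylesterases were examined in 4 further lists. Of 14 other neutral lipid hydrolases tested, 5 had a higher and 9 a lower estimate (median log2 fold change -0.11), and 1 was called. That gene was Lipe, hormone-sensitive lipase, with 405, 367, 375 and 432 counts in the control mice and 453, 654, 507 and 525 in the AF1 peptide mice, without overlap (log2 fold change 0.43, SE 0.13, adjusted p = 0.763 in limma). The log2 fold change of Lipe was 0.50 without AF1 peptide replicate 1, and it was called in 8 of 8 fits that left out a mouse. Lipa, lysosomal acid lipase, was at -0.26 (SE 0.15), and Pnpla3, a lipid droplet lipase, at -1.68 (SE 0.98), with 15.9 counts in AF1 peptide replicate 1 and 322 to 1089.6 in the other 7 mice. Neither passed the test, and without AF1 peptide replicate 1 Lipa was at -0.13 and Pnpla3 at -0.47.

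Among 10 other esterases of drugs and toxins, 3 had a higher and 7 a lower estimate (median -0.04), and none had an unadjusted limma p under 0.05. The smallest p values belonged to Afmid, arylformamidase (log2 fold change 0.71, SE 0.36), Pon2, a paraoxonase (-0.16, SE 0.11), and Cmbl, which activates ester prodrugs (0.13, SE 0.13). Afmid had 11377 counts in AF1 peptide replicate 1 and 1944 to 4537 in the other 7 mice, and its log2 fold change was 0.31 without that mouse.

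Of 10 genes of VLDL assembly, the process to which Ces1d supplies lipid, 4 had a higher and 6 a lower estimate (median -0.08). Sar1b, which drives export vesicles from the endoplasmic reticulum, was called lower (log2 fold change -0.36, SE 0.14), as was Cideb, which lipidates VLDL (-0.60, SE 0.24). Dgat1, which makes triacylglycerol, was called higher (0.27, SE 0.12). The adjusted limma p of all 3 genes was 0.763, and each call was lost in some fits that left out a mouse. Without AF1 peptide replicate 1, Sar1b was at -0.27 (limma p of 0.0565) and Dgat1 at 0.17 (0.0965), which ended both calls, and Cideb was at -0.67 (0.0218). Of the 8 fits that left out a mouse, 4 called Sar1b, 3 called Cideb and 3 called Dgat1. Sar1b also lost its call without control replicate 1 (-0.32), 2 (-0.29) or 4 (-0.34), and Dgat1 without control replicate 2 (0.23), 3 (0.29) or 4 (0.26) or AF1 peptide replicate 2 (0.29). Cideb lost its call without control replicate 1 (-0.56), 2 (-0.44) or 4 (-0.62) or AF1 peptide replicate 3 (-0.50) or 4 (-0.54). The estimate did not shrink for Dgat1 without control replicate 3 or AF1 peptide replicate 2, nor for Cideb without control replicate 4, where the fit had fewer mice.

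Among 14 xenobiotic receptors and their target genes, 9 had a higher and 5 a lower estimate (median 0.04). Nr1i2, the pregnane X receptor, had 3649, 3200.5, 4099 and 4176 counts in the control mice and 5072, 4606, 4773 and 4270.3 in the AF1 peptide mice. Every AF1 peptide mouse was above every control mouse, as was so for 2.05% of all tested genes. The log2 fold change was 0.31 (SE 0.11, unadjusted p = 0.0180, adjusted p = 0.763 in limma). Without AF1 peptide replicate 1 it was 0.27 (limma p of 0.0321), and the call was lost only without control replicate 2 (0.24, 0.0575). Nr1i3, the constitutive androstane receptor, was at 0.18 (SE 0.12). The target genes Cyp2c55 and Cyp3a11 were at -0.67 (SE 0.35) and -0.42 (SE 0.38). None of these genes passed the test, although Cyp2c55 was called without AF1 peptide replicate 1 (-0.78, limma p of 0.0481). Over these 4 lists and the other carboxylesterase genes, 6 of 53 tested genes were called, where 6.19% of all tested genes were.

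Markers of cell types that could carry carboxylesterase RNA of their own were counted beside these results. Of the enterocyte markers, Vil1 and Lct had at most 8.65 counts in any mouse, and Sis and Alpi were not found by symbol. Fabp2, which hepatocytes also express, was at 5656 to 7333 counts in the control mice and 2524 to 5036 in the AF1 peptide mice, with a log2 fold change of -0.66 (unadjusted p = 0.00876, adjusted p = 0.763 in limma) and of -0.43 without AF1 peptide replicate 1 (unadjusted limma p of 0.00201). Of the adipocyte markers, Cfd and Retn summed to 20.1 to 103.8 counts in the control mice and 11.2 to 60.3 in the AF1 peptide mice. Adipoq, Plin1 and Lep were not found by symbol. The 5 periportal hepatocyte markers summed to 67115 to 88020 counts in the control mice and 44309 to 170746 in the AF1 peptide mice, with AF1 peptide replicate 1 the highest and AF1 peptide replicate 3 the lowest. Ces2a had the same mice at its extremes. So did genes outside the zone markers, among them the xenobiotic target gene Cyp2b10, at 504.8 counts in AF1 peptide replicate 1 and 89.0 in AF1 peptide replicate 3. Other target genes did not, such as Cyp2b9, which was highest in AF1 peptide replicate 3. AF1 peptide replicate 1 was also the highest for the sum of the 5 pericentral markers, at 191335 counts (98725 to 181896 in the other mice). The periportal marker Cyp2f2 was at 10514 counts in that mouse and 9462 to 19420 in the other mice. The part of zonation, or of other differences between these mice, in the Ces2a values was not tested.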

How the data were processed

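The deposited table holds the authors' signal values, read counts per gene scaled by the size factor of each library, for 21532 genes in 8 livers (1 per mouse). The submitters' processing notes name Trim Galore 0.6.7, HISAT2, SAMtools 1.17 and the mm39 build, and the study's methods name GenomicAlignments for counting. The annotation, the use of strand and the treatment of reads with several matches are not given in the sources used here. Whole reads were recovered for 100% of 172256 values (tolerance 0.01 reads). The replicates are described as biological, and no library was a duplicate of another.

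Groups were compared with limma 3.58.1 (R 4.3.3) with a variance trend on log2(normalized count + 1) for the 15989 genes with a mean of at least 10, and p values were adjusted by Benjamini-Hochberg over all of them. Fold changes on this scale understate changes of low genes. A call is an unadjusted p under 0.05, the threshold that the study's methods name, and no gene passed adjustment in limma. The script was tested on simulated data. Two-sided exact permutation tests over mice were run for single members. A fit that leaves out a mouse has fewer mice, so a call can be lost without a smaller estimate. Alternatives were edgeR 4.0.16 and DESeq2 1.42.0 on recovered reads, other pseudocounts, filters and scalings, a replicate block, a 1.3-fold minimum, leaving out each mouse, and, chosen after seeing the data, sums with near-identical copies. Genes named were all carboxylesterases of the table, the 3 smallest p values of each list, the nearest member to each member and the 3 genes nearest to the members' mean profile. Cfd, Retn, Vil1, Lct, Serpina1a, Tat, Hnf4a and Cyp2f2 were named as markers after their values were seen. Cyp2b9, Cyp2b10 and Cyp3a11 were likewise named as xenobiotic target genes after their values were seen. The members and lists were chosen with earlier results of these data known. Sequences, lengths and positions are from GENCODE M21 (GRCm38), a different build, so no gene coordinates are given. Identities come from alignments with Biopython 1.88 and are shares of the aligned bases, with gaps left out.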

Additional observations from a re-analysis of the deposited data

Results flagged for a closer look

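For the 15 tested carboxylesterase genes and the sum of the members, 32 groups of 4 mice in all, 4 had a mouse far from the other 3 by Dixon's criterion on the gap over the range. Chance gives about 1 in 20 groups, or 1.6 of 32. AF1 peptide replicate 1 was far above its group for Ces1e, with 8978 normalized counts against 6376 in the next mouse (gap over range 0.882), and for Ces1b, with 3509 against 1662 (0.966). Control replicate 2 was far below its group for Ces1g, with 3281 against 3979 (0.885), and far above it for Ces2g, with 1109 against 944 (0.888).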

How the results depend on the processing

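Ces3b kept its direction and an unadjusted p under 0.05 in each alternative except the sum with Ces3a (0.39, p of 0.14 in limma). The count of 2 called members was 1 without the variance trend, with each gene's own variance, in edgeR and in the exact permutation test, since Ces2e lost its call there, and 1 to 2 when a mouse was left out. Members without overlap numbered 1 to 2 when a mouse was left out, with Ces2a added without AF1 peptide replicate 3 and Ces2e without AF1 peptide replicate 4. Each was the only treated mouse that had kept the groups of its gene overlapping, and the share over all genes was not counted in these fits. The 6 called genes of the other lists became 2 with each gene's own variance and 1 to 7 when a mouse was left out, with 3 without control replicate 1 or control replicate 4 and 1 without control replicate 2. The share called over all tested genes moved too, from 6.19% to 6.10% with each gene's own variance. It was 4.29, 3.38 and 4.92% without control replicates 1, 2 and 4, and 10.1% without AF1 peptide replicate 1. With libraries scaled to equal totals, the log2 fold changes of Ces1c (-0.0479) and Ces1f (-0.0758) turned negative. Leaving out single mice turned the sign of Ces1c (-0.1069 to 0.1528), Ces1e (-0.0052 to 0.2528), Ces1f (-0.0128 to 0.0744) and Ces2c (-0.4747 to 0.1111), none of which was called. The cause of these shifts was not tested. A replicate block on the shared numbers gave 2 called members and 8 other listed genes. With that block the unadjusted limma p of Ces2e was 0.0127, and 1244 of all tested genes were called, compared with 990 without it. Same-numbered mice correlated at -0.06 to 0.24 (mean 0.10), and mice with different numbers at -0.27 to 0.14 (mean -0.03). Of the 8 mice, 4 were nearest to their own number, where each was compared with the 4 mice of the other group. The sample labels give a shared number only, and whether the mice were paired was not tested. Depth did not limit the members, each of which held at least 716 recovered reads in every mouse.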

Other observations

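Values of the other cell type and zone markers are given here. None of the 6 hepatocyte markers was called by limma at an unadjusted p under 0.05: 3 had lower estimates, Apoa1 (log2 fold change -0.41), Ttr (-0.24) and Alb (-0.24), and 3 higher, Serpina1a (0.08), Tat (0.03) and Hnf4a (0.03). The 5 Kupffer cell markers summed to 4280 to 5387 counts in the control mice and 1919 to 4891 in the AF1 peptide mice, with 4 of 5 estimates lower and none called (Cd5l -0.53, Vsig4 -0.32, Marco -0.14). The lowest sum was that of AF1 peptide replicate 1, and the other AF1 peptide mice, at 4805 to 4891, lay within the control range. The 5 sinusoidal endothelial markers were at 3783 to 4454 and 3389 to 4168, with none called (Lyve1 -0.29, Kdr -0.24, Stab2 -0.11). Of the 5 stellate cell markers, at 3646 to 4040 and 2743 to 4009, Dcn was called lower (-0.42, and -0.43 without AF1 peptide replicate 1), though not without control replicate 1 (-0.40), 2 (-0.35) or 4 (-0.40) or AF1 peptide replicate 2 (-0.25), and Colec11 (-0.16) and Reln (0.19) were not. The 4 cholangiocyte markers were at 1142 to 1742 and 765 to 2234 (Epcam 0.26, Krt7 -0.06, Krt19 0.05), and the 4 red blood cell markers were at 25143 to 93873 and 20752 to 38312 (Alas2 -0.23, Hbb-bt -0.32, Hbb-bs -0.32), with none called in either list. The 5 pericentral markers were at 98725 to 181896 and 100057 to 191335 (Glul -0.28, Slc1a2 0.26, Cyp2e1 -0.09), and all 5 periportal markers had higher estimates (Gls2 0.34, Hal 0.29, Sds 0.28), again with none called. In AF1 peptide replicate 1, Gls2 was at 30000 counts, Hal at 11546 and Sds at 41260. In the other mice they were at 5788 to 11913, 2277 to 4599 and 6193 to 14694, where the groups overlapped. Cfd, the adipocyte marker with enough counts to test, was at -0.98 and was not called.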
